A study of Mus musculus with 8 samples.

Results

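Genes of the Hippo pathway and of the TEAD transcription factors it controls were examined for H3K79me2, dimethylation of histone H3 at lysine 79, in cultured mouse spermatogonial stem cells. The set holds 10 of the 21887 protein-coding genes considered, namely Tead1, Tead2, Tead3, Tead4, Yap1, Wwtr1, Vgll4, Stk3, Lats1 and Lats2. The set was chosen by the covered bases of Tead1, which are many both with and without the inhibitor, and the other genes joined it as members of the same pathway. Coverage is therefore given as a description.

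The donors were mice of the strain B6.129S7-Gt(ROSA)26Sor/J, aged 7 days, whose tissues all carry a LacZ reporter. Their testis cells were expanded over 2 months, without serum, on feeders of the mouse fibroblast line SNL 76/7 in medium holding GDNF (10 ng/mL) and FGF2 (0.5 ng/mL). Treatment lasted 7 days, with EPZ5676 at 2 µM, which inhibits DOT1L, the methyltransferase of this lysine, or with vehicle (DMSO in the protocols, ethanol in the short names of the control samples). Both conditions shared the mouse line, feeders and medium. The series has 8 samples, 2 each of H3K79me2 and input chromatin for EPZ5676 and for control, and 1 peak list per condition was used, so the values carry no replicate error and conditions could not be tested against each other. The protocols name no step that removed the feeder cells before fixation, so a peak of the mixed culture cannot be assigned to germ cells or feeders, and fewer marked cells cannot be told apart from less mark per cell.

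In the Hippo pathway, the kinases MST1 and MST2 activate the kinases LATS1 and LATS2, which phosphorylate the coactivators YAP and TAZ and hold them in the cytoplasm. Unphosphorylated YAP and TAZ enter the nucleus and bind the TEAD proteins, DNA-binding factors that turn on genes of growth and survival. DOT1L places H3K79me2 over the transcribed part of active genes, most densely downstream of the start.

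After EPZ5676, short H3K79me2 peaks lay on most of these genes, whereas all of them had control peaks, which ran over long stretches of most. An EPZ5676 peak lay on 7 of the 10 genes and a control peak on all 10. Over all protein-coding genes, 12.3% had an EPZ5676 peak, 52.7% a control peak and 10.2% both. The 10 genes together had 22464 bp under EPZ5676 peaks, 2.22% of their span, and 536913 bp under control peaks, 53.0% of their span. For all protein-coding genes those shares were 0.352% after EPZ5676 and 15.5% in the control. Of the control-covered bases of the 10 genes, 3.87% were also covered after EPZ5676, and of those of all protein-coding genes, 1.76%. Without Tead1, whose coverage chose the set, 6 of the other 9 genes had an EPZ5676 peak and all 9 a control peak. EPZ5676 peaks covered 1.61% of the span of those 9 genes and control peaks 47.4%. Of their control-covered bases, 2.95% were also covered after EPZ5676. The EPZ5676 peaks were weak, and at a −log10 q of at least 2 only Tead4 and Vgll4 had one, whereas all 10 genes still had a control peak.

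Long genes offer more room for a peak, and the counts are best read beside genes of like length. Among genes spanning 100 kb or more, EPZ5676 peaks lay on 3 of the 4 in the set (Tead1, Wwtr1 and Vgll4, but not Stk3), against 40.0% of all genes of that length, and all 4 had a control peak, against 65.8%. From 20 to 100 kb, 3 of 4 had one (Tead4, Lats1 and Lats2, but not Yap1), against 18.8%, and all 4 had a control peak, against 66.4%. Under 20 kb, Tead3 had one and Tead2 had none, against 2.47%, and both had a control peak, against 41.2%. With 50 kb or more of control coverage, 3 of 5 genes of the set had an EPZ5676 peak, close to the 63.6% of all 726 such genes. The set is too small for these shares to say more than where each gene falls.

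**Figure D1:**
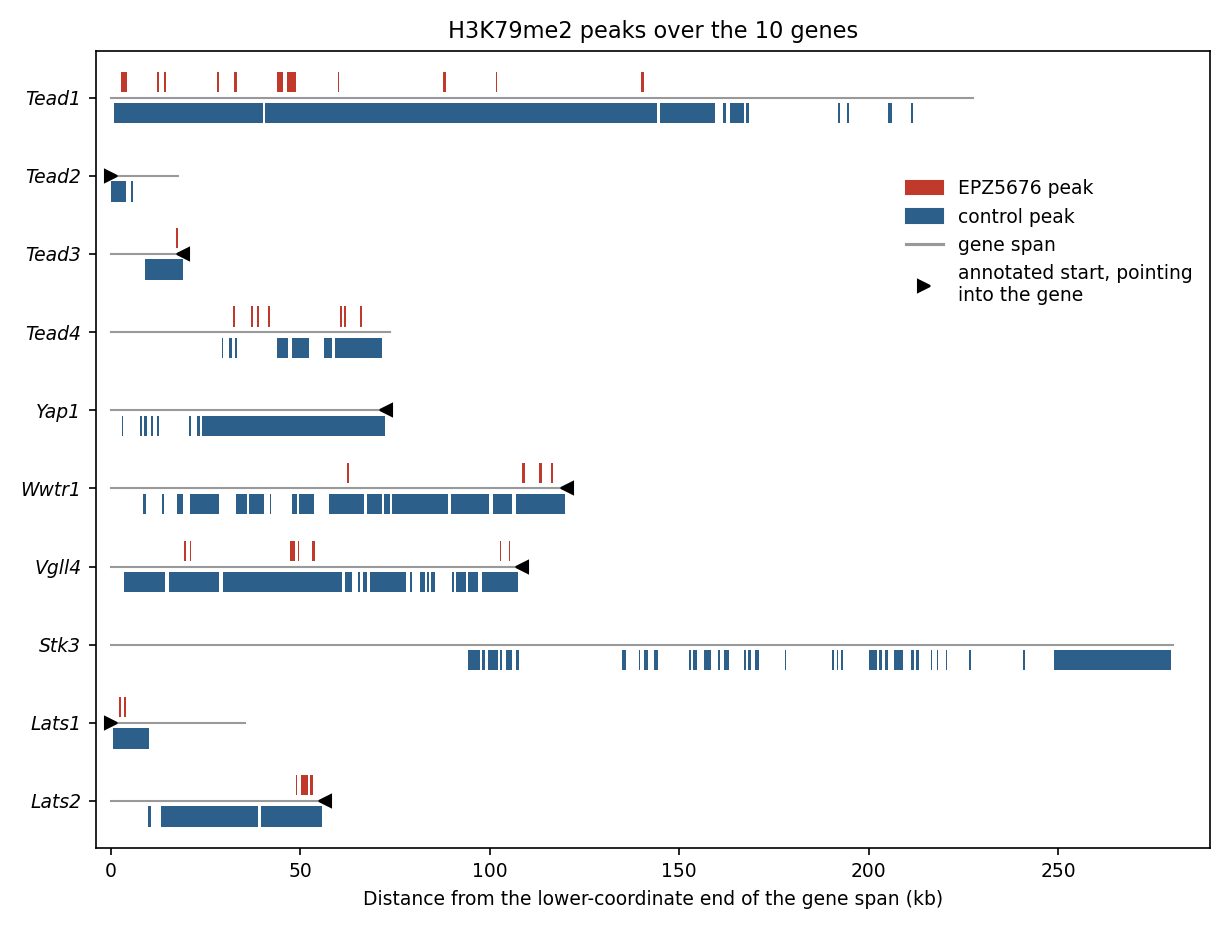
H3K79me2 peaks of the EPZ5676 list (red, above the line) and of the control list (blue, below it) along each of the 10 genes, in kb from the lower-coordinate end of the span, with black triangles at annotated starts (Tead1, Tead4 and Stk3 have none in the table used). The 35 EPZ5676 peaks are short and absent from Tead2, Yap1 and Stk3, while control peaks fill long stretches, 72.4% of Tead1 and 79.7% of Vgll4.

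At the starts of the genes, where the mark usually begins, the control list left the promoter window uncovered in 5 of the 7 genes that had one. RefSeq promoter windows of GRCm38.p6, which run from 250 bases before an annotated start to 50 after it, were at hand for 7 of the 10 genes, and the outermost start was used. None of the 7 windows held an EPZ5676 peak. Tead2 was the only gene whose 300-base window lay wholly under a control peak, and 75 bases of the Lats1 window were covered by the end of a control peak that lies upstream, outside the span of Lats1. In the other 5 (Tead3, Yap1, Wwtr1, Vgll4 and Lats2) the window held no control peak. Of the control-marked genes with such a window, 0.0643% had at least 1 base of it under an EPZ5676 peak, 16.4% at least 1 base under a control peak and 10.0% all of it. A window free of control peaks was thus the usual case and not a trait of the set. The control domain of Tead3 began 182 bp from the start and that of Yap1 374 bp, followed by Lats1 at 438 bp, Wwtr1 at 523 bp, Lats2 at 661 bp and Vgll4 at 1044 bp.

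The windows of 4 genes are shown, Tead2 because it was wholly covered, Yap1 and Wwtr1 because they encode the coactivators, and Lats2 because it is a known target of YAP. Capitals mark GGAATG, the core bound by TEAD proteins, which was searched for on both strands (also as CATTCC) after the windows had been seen. Tead2 lies at chr7:45215542-45215841 (plus strand), Yap1 at chr9:8004547-8004846 (minus strand), Wwtr1 at chr3:57575861-57576160 (minus strand) and Lats2 at chr14:57746074-57746373 (minus strand), and all read 5′ to 3′ along the gene.
Tead2: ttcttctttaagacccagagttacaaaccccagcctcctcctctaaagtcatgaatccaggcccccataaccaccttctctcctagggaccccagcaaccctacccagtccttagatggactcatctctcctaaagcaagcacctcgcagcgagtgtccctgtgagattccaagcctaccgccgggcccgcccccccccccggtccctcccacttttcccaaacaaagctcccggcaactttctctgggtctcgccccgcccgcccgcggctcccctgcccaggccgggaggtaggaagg
Yap1: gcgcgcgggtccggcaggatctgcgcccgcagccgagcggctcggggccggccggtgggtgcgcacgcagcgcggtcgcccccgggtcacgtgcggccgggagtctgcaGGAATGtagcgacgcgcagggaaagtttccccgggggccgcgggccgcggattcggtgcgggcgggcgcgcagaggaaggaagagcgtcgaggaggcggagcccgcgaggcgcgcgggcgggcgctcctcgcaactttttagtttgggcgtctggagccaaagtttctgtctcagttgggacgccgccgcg
Wwtr1: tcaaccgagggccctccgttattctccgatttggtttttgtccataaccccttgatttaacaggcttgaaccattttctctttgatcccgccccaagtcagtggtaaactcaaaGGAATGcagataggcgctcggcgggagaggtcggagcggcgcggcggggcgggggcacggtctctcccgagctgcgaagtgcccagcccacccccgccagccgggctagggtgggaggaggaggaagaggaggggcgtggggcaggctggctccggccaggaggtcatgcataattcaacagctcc
Lats2: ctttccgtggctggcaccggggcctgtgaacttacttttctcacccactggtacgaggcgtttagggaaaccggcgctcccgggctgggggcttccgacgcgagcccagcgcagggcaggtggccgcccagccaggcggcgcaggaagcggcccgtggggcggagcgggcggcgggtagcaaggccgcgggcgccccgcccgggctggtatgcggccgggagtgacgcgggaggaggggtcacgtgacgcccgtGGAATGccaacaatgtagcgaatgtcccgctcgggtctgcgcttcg

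GGAATG occurred once in each of 5 of the 7 windows (Tead3, Yap1, Wwtr1, Vgll4 and Lats2), against 13.5% of the windows of 17492 protein-coding genes, and it was in neither Tead2 nor Lats1. It began 182 bases before the start of Tead3, 141 before that of Yap1, 136 before that of Wwtr1 and 82 before that of Vgll4, and 4 bases after that of Lats2. The match describes the letters of these windows, not binding. All 7 windows were rich in G and C, from 61.3% at Tead2 to 74.0% at Yap1, against a median of 56.3% over the 17492 windows.

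Among the TEAD genes, Tead1, which encodes a TEAD protein made in many tissues, had the longest coverage under both conditions. In the EPZ5676 list 11 peaks covered 9795 bp of its 227429 bp span (chromosome 7, 112679356 to 112906784, mm10), or 4.31%, and in the control list 10 peaks covered 164589 bp, or 72.4%. Only 28 of the 2228 genes with peaks in both lists had more bases under EPZ5676 peaks, and 34 of all protein-coding genes had more under control peaks. Of the 154 genes with at least 100 kb of control coverage, 107 had an EPZ5676 peak, with a median of 1770 bp among those 107 and a maximum of 22287 bp over all 154.

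Every EPZ5676 peak of Tead1 lay inside 1 of its widest 2 control peaks. The control peak nearest the lower-coordinate end was 39380 bp wide, with a fold enrichment of 6.50 over background as the authors give it, and held 5 EPZ5676 peaks with 3836 bp. The next control peak was 103399 bp wide, the 22nd widest of the control list, with a fold enrichment of 4.11, and held 6 EPZ5676 peaks with 5959 bp. The remaining 8 control peaks, of 191 to 14496 bp, held none. When control peaks up to 1000 bp apart were joined, a single run of 158478 bp covered 69.7% of the gene. The widest EPZ5676 peak of Tead1 measured 2353 bp (73rd widest of 9182), the narrowest 155 bp and the median 609 bp. Their −log10 q reached 1.97 at most, so that at a minimum of 2 Tead1 had 0 bp under EPZ5676 peaks and 158990 bp under control peaks.

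The stretch of chromosome 7 that holds Tead1 was dense in EPZ5676 peaks, those of Tead1 included. When the genome was divided into bins of 1 Mb, the bin that holds Tead1 (chromosome 7, 112000001 to 113000000) had 44 EPZ5676 peaks, against a median of 4 over the 1844 bins with any, and 77 control peaks. It ranked second by number of EPZ5676 peaks and first by the 35928 bp they covered. Both values include the 11 peaks and 9795 bp of Tead1 itself, whose coverage chose the set. The bin was not ranked without them. Besides Tead1, Parva, a focal adhesion gene (12 EPZ5676 peaks, 16320 bp; 28 control peaks, 62270 bp), and Mical2, an actin-regulating oxidase gene (15 EPZ5676 peaks, 7993 bp; 26 control peaks, 40597 bp), lie in this bin. Closer to Tead1, Rassf10 had no EPZ5676 peak and 330 bp under 1 control peak. Dkk3 (6185 bp under control peaks) and Micalcl (no control peak), also in this bin, had no EPZ5676 peak.

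The other TEAD genes carried less of the mark and differed from one another. Tead4, whose product specifies the trophectoderm of the mouse embryo, had 7 EPZ5676 peaks over 2783 bp and 7 control peaks over 23941 bp (32.5% of its span). It was the only gene of the set with EPZ5676 bases outside control peaks, 1689 bp in 4 peaks, and the other 3 peaks lay inside its widest control peak, of 12581 bp. Of the set's 35 EPZ5676 peaks, 2 at Tead4 had the highest fold enrichments, 3.45 and 3.27, and ranked 40th and 50th of 9182 by −log10 q. Its control peaks were weak for the set, with a highest fold of 2.59.

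Tead3 had 1 EPZ5676 peak of 263 bp, the shortest coverage of the 7 genes with any, and 1 control peak of 10030 bp (52.4% of its span). The EPZ5676 peak lay inside the control peak and 1610 bp downstream of the start. Tead2, a TEAD gene known from early mouse embryos, had no EPZ5676 peak and 2 control peaks over 4467 bp (25.3%), the shortest control coverage of the set. From longest to shortest, the order of the TEAD genes was Tead1, Tead4, Tead3, Tead2 in both lists.

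**Figure D2:**
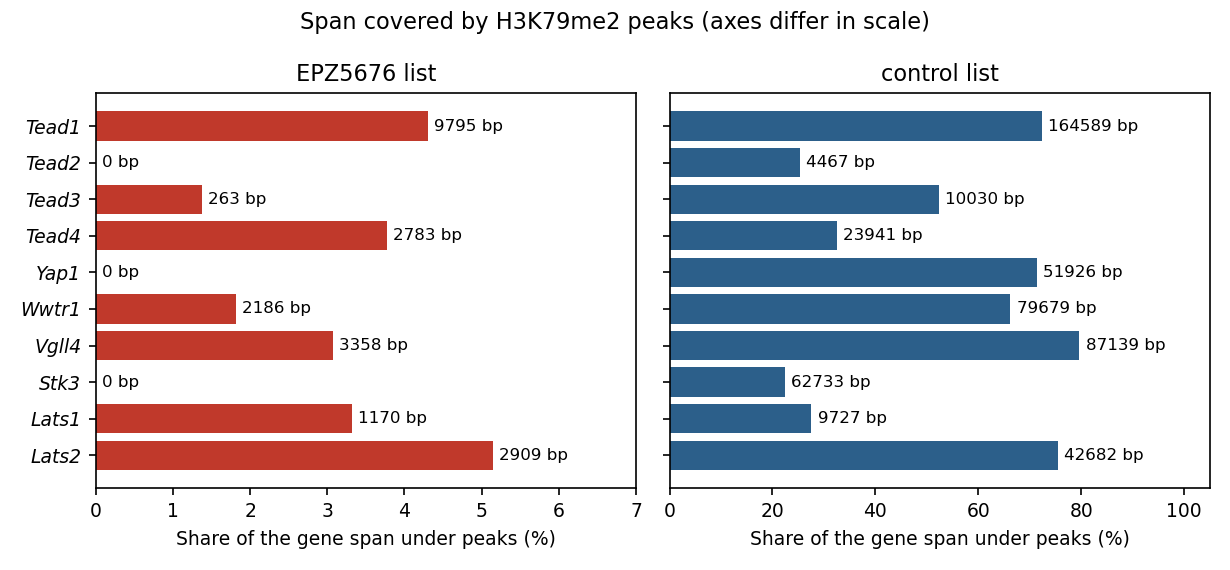
Share of each gene's span under H3K79me2 peaks in the EPZ5676 list (left) and in the control list (right, on a wider scale), with the covered bases printed beside each bar. Lats2 (5.14%, but 0.411% outside its overlap with Gm52140) and Tead1 (4.31%) lead after EPZ5676, and Vgll4 (79.7%) and Lats2 (75.5%) in the control; the lists have no replicates, so no error is drawn.

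The coactivator genes were both marked over most of their span in the control and differed after EPZ5676. The difference rested on weak peaks, and at a −log10 q of at least 2 neither gene had an EPZ5676 peak. Yap1, which encodes YAP, had no EPZ5676 peak and 8 control peaks over 51926 bp (71.5% of its span). A single control peak of 48127 bp, running from 374 to 48500 bp downstream of the start with a fold enrichment of 4.58, made up 92.7% of that coverage. Wwtr1, which encodes TAZ, had 4 EPZ5676 peaks over 2186 bp (1.82%) and 16 control peaks over 79679 bp (66.3%). Its control coverage was broken into many peaks, the widest 14703 bp, and the highest fold, 3.13, was in the peak nearest the start. That peak, of 12871 bp, held 3 of the 4 EPZ5676 peaks, between 3587 and 11757 bp downstream of the start.

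Vgll4 encodes a cofactor that competes with YAP for TEAD proteins and represses their targets. It had 7 EPZ5676 peaks over 3358 bp (3.07%) and 15 control peaks over 87139 bp (79.7%, the highest share of the set). Its widest EPZ5676 peak, 1272 bp with a fold enrichment of 3.12, lay some way into the gene, 60047 to 61318 bp from the annotated start. It was inside the widest control peak of the gene, of 31406 bp, which also had the gene's highest control fold, 4.03. In this gene the peak of highest fold was thus not the one nearest the start, unlike Tead2, Yap1, Wwtr1 and Lats2, and the peak nearest the start was the one of highest fold in 76.4% of all genes with at least 2 control peaks and an annotated start. The table used holds 1 start for Vgll4, and a start that it lacks would change these distances.

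Among the kinase genes, Stk3 was without an EPZ5676 peak while both Lats genes had some. At a −log10 q of at least 2, none of these kinase genes had an EPZ5676 peak. Stk3, which encodes MST2, had no EPZ5676 peak and 34 control peaks over 62733 bp, only 22.4% of its 280384 bp span. The widest, 31023 bp at the higher-coordinate end of the gene, had a fold enrichment of 4.21 and made up 49.5% of the coverage. Lats1 had 2 EPZ5676 peaks of 724 and 446 bp, together 1170 bp (3.32% of its span), and a single control peak of 9727 bp (27.6%) with a fold enrichment of 6.26. At Lats1, 1170 bp of the 9727 bp under the control peak were also covered after EPZ5676, the highest share of the set.

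Lats2 had 3 EPZ5676 peaks over 2909 bp (5.14% of its span) and 3 control peaks over 42682 bp (75.5%). The EPZ5676 peaks all lay between 3232 and 7737 bp downstream of the start. The control peak that held them, 16186 bp wide, had a fold enrichment of 6.01, against 3.34 for the wider control peak further on (25771 bp), which held none. Most of the EPZ5676 bases of Lats2 also belong to Gm52140, a gene that its span overlaps, namely 2708 bp of the 2909 bp under EPZ5676 peaks and 6876 bp of those under control peaks. In the 48925 bp that are of Lats2 alone, EPZ5676 peaks covered 201 bp (0.411%) and control peaks 35806 bp (73.2%). The span of Lats1 overlaps that of Pcmt1, but no covered base of Lats1 is shared. With such bases left out, EPZ5676 peaks covered 19756 bp of the 10 genes and control peaks 530037 bp.

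Most EPZ5676 peaks of the set overlapped a control peak, 31 of 35, of which 11 were at Tead1, and in the whole EPZ5676 list 55.8% did. The whole list also holds peaks outside genes and in genes without a control peak. Summed over all protein-coding genes, 2875690 of 3703125 bp under EPZ5676 peaks were also under control peaks, and in the set 20775 of 22464 bp. Of the 97 control peaks, 11 (11.3%) overlapped an EPZ5676 peak, against 6.48% of the 47774 peaks of the whole control list. Those 11 were 9275 to 103399 bp wide (median 12871 bp), and the other 86 were 191 to 48127 bp wide (median 920 bp). Wide peaks are the easier to overlap. Of the 6 control peaks of 20 kb or more, 3 overlapped an EPZ5676 peak (2 at Tead1, 1 at Vgll4), and 52.4% of all 1582 control peaks of that width did. The 35 EPZ5676 peaks had a median width of 458 bp and a median fold of 2.81, and the whole EPZ5676 list had medians of 402 bp and 2.75.

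**Figure D3:**
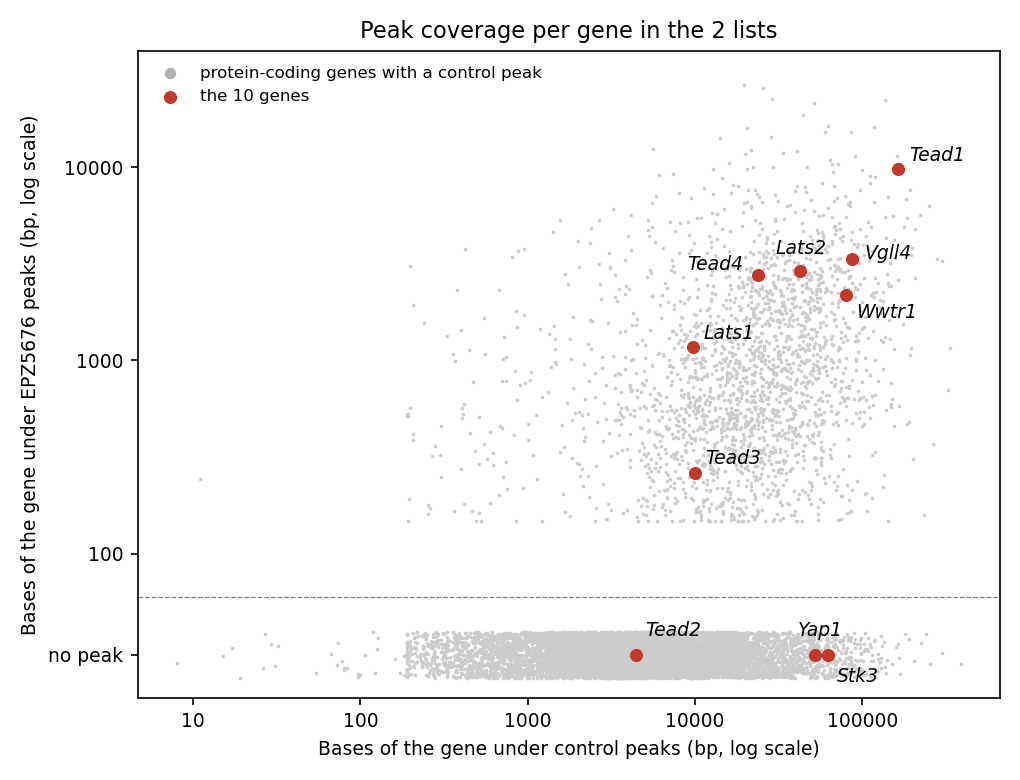
Bases under EPZ5676 peaks (vertical, log scale, genes with none below the dashed line, spread vertically for display) against bases under control peaks (horizontal, log scale) for each of the 11528 protein-coding genes with a control peak (grey), with the 10 genes in red. Tead1 (EPZ5676 9795 bp, control 164589 bp) lies at the upper right, while Tead2, Yap1 and Stk3 have no EPZ5676 peak.

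The 5 genes most like Tead1 were those at the smallest distance from it in log10 of the bases covered, taken over the 2 lists. They were Cacna1c, a calcium channel gene (EPZ5676 10354 bp, control 167912 bp, distance 0.0256), Med13l, a Mediator subunit gene (EPZ5676 11435 bp, control 161821 bp, 0.0676), Rbfox2, a splicing factor gene (EPZ5676 7656 bp, control 191727 bp, 0.126), Ldlrad4 (EPZ5676 8928 bp, control 119286 bp, 0.145) and Ankrd11 (EPZ5676 6985 bp, control 143341 bp, 0.159). The layout behind like totals differed, with 90 control peaks at Cacna1c and 1 at Ankrd11, against 10 at Tead1.

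Other genes of the Hippo pathway were mostly marked in the control, and some had an EPZ5676 peak. Of 31 such genes, 12 had an EPZ5676 peak and 27 a control peak, and 44.4% of the 27 had both, against 19.3% of all control-marked genes. The genes of the list are long, with a median span of 53885 bp against 17169 bp over all protein-coding genes, and of control-marked genes of 20 to 100 kb 25.3% had both, of those of 100 kb or more 45.2%. The median control coverage of the 27 was 23038 bp, against 10822 bp over control-marked genes of 20 to 100 kb and 30886 bp over those of 100 kb or more. The longest EPZ5676 coverage was at Amotl1, an angiomotin family gene whose product binds YAP (EPZ5676 6293 bp, control 21698 bp), and Wwc2, of the KIBRA family (EPZ5676 5516 bp, control 79557 bp). Fat4, an atypical cadherin gene, had nearly as many bases covered in both lists (EPZ5676 4740 bp, control 5218 bp), of which 885 bp lay under both, and Vgll3, another TEAD cofactor gene, had EPZ5676 peaks over 4675 bp and control peaks over 7638 bp.

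Ptpn14, a phosphatase gene whose product binds YAP, had the longest control coverage of the list (EPZ5676 4623 bp, control 86844 bp), ahead of Wwc2 and Map4k4, a kinase gene acting on LATS (EPZ5676 1345 bp, control 78901 bp). Coverage was also shared at Fat1, a cadherin gene (EPZ5676 2979 bp, control 73366 bp), Limd1 (EPZ5676 2775 bp, control 23038 bp) and Wtip (EPZ5676 725 bp, control 12311 bp), whose LIM proteins bind LATS, and Strn3, of the STRIPAK phosphatase complex (EPZ5676 2753 bp, control 46545 bp, its span overlapping Ap4s1). It was slight at Frmd6, an upstream FERM protein gene (EPZ5676 182 bp, control 49123 bp), and Stk38l, a LATS-related kinase gene (EPZ5676 158 bp, control 38805 bp). Stk4, the MST1 gene, was like Stk3 without an EPZ5676 peak (48481 bp in the control), and so were Sav1 (17301 bp), Mob1a (11725 bp) and Mob1b (26661 bp), which encode the adaptors of the core kinases, and Nf2 (29322 bp). Dchs1, Tnik, Vgll1 and Vgll2 had no peak in either list.

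Among classical targets of YAP and TAZ, some were covered at length and the best known had no peak. Of 22 such genes, 10 had an EPZ5676 peak and 17 a control peak, and 58.8% of the 17 had both, where all protein-coding genes gave 12.3% with an EPZ5676 peak, 52.7% with a control peak and 19.3% of the control-marked with both. These targets too are longer than most genes, with a median span of 33472 bp. Of control-marked genes of 20 to 100 kb 25.3% had both, and of those of 100 kb or more 45.2%. Lats2 is also among the 10 genes of the set, and Ptpn14 and Amotl2 are also in the Hippo list. Ccn1, Ccn2, Ankrd1, Igfbp3 and Foxf2 had no peak in either list. These are short genes, from 3015 bp (Ccn1) to 9413 bp (Igfbp3). Of all genes under 20 kb, 2.47% had an EPZ5676 peak and 41.2% a control peak, so having none is common at that length. Ccn1, Ccn2 and Ankrd1 are the targets most often used to read out YAP activity, which was not tested. Rbms3, an RNA-binding protein gene, had the longest EPZ5676 coverage of the list (EPZ5676 12334 bp, control 21552 bp). Ccdc80, a matrix protein gene, and Tgfb2, a growth factor gene, had the longer coverage after EPZ5676 (Ccdc80, EPZ5676 6554 bp, control 5529 bp; Tgfb2, EPZ5676 2329 bp, control 675 bp). The longest control coverage was at Asap1, an Arf GTPase-activating protein gene (EPZ5676 5471 bp, control 184642 bp), then Crim1 (EPZ5676 789 bp, control 87376 bp, its span overlapping Fez2) and Ptpn14. The others with both were Lats2 itself, Arhgef17 (EPZ5676 1739 bp, control 37833 bp), Nt5e (EPZ5676 717 bp, control 1853 bp) and Myof (EPZ5676 351 bp, control 11322 bp).

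**Figure D4:**
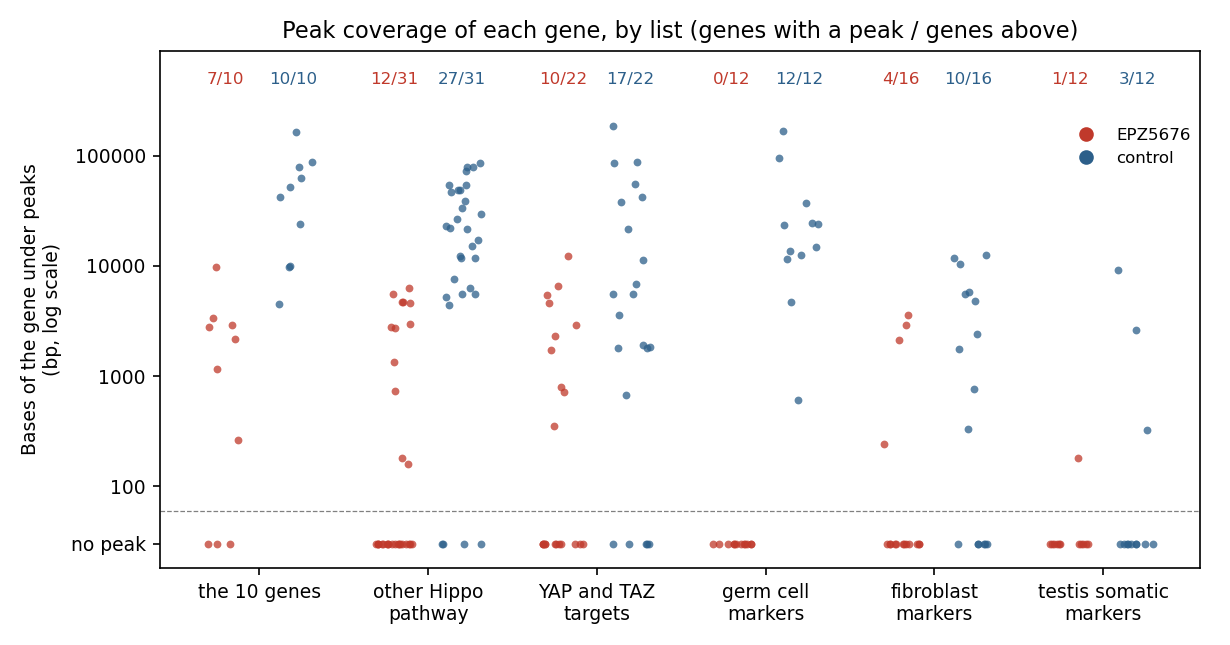
Bases under EPZ5676 peaks (red) and control peaks (blue) of each gene (log scale, genes with none below the dashed line, points spread sideways for display) in the 10 genes, the other Hippo genes, YAP and TAZ targets, and markers of germ cells, fibroblasts and testis somatic cells. The counts above give genes with a peak over genes in the list: no germ cell marker had an EPZ5676 peak (0/12), and all had a control peak (12/12). Of all protein-coding genes, 12.3% had an EPZ5676 peak and 52.7% a control peak.

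Markers of the cell types that the culture could hold were counted in the same way, to be read beside the 12.3% of all protein-coding genes with an EPZ5676 peak and the 52.7% with a control peak (18.8% and 66.4% at spans of 20 to 100 kb). None of 12 germ cell markers had an EPZ5676 peak, among them Ddx4, Dazl, Zbtb16 and Gfra1, and all 12 had a control peak, with 432304 bp in all. Of 16 fibroblast markers, 4 had an EPZ5676 peak (Prrx1, Twist2, Fbn1 and Sparc; 241 to 3583 bp, 8872 bp in all) and 10 a control peak (330 to 12557 bp, 56149 bp in all). Col1a2, Col3a1, Vim, S100a4, Lum and Dcn had no peak in either list. Of 12 testis somatic markers, 1 had an EPZ5676 peak (Fshr, 179 bp) and 3 a control peak (Wt1, Inhba and Amh; 325 to 9155 bp, 12120 bp in all). The part of feeder cells in the peaks of the Hippo genes was not tested.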

How the data were processed

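H3K79me2 and input chromatin were prepared from EPZ5676-treated and control cultures (2 samples each), and the 2 peak lists used stand under replicate 1 of EPZ5676 and of control H3K79me2. The genome build was mm10 and the tools included deepTools, Trimmomatic and bcl2fastq (version 2.20.0.422), per the submitters' processing notes. Aligner, peak caller, role of the inputs and any pooling of replicates: not given in the sources used here. The deposited lists give for each peak a score, a fold enrichment (a ratio to background), a −log10 p and a −log10 q, all the authors' values, which served to describe, rank and filter peaks inside each list. Depth is unknown, so no precision can be given.

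Peaks were intersected (at least 1 bp) with the RefSeq spans of 21887 protein-coding genes of GRCm38.p6, the assembly mm10 names, on chromosomes 1 to 19, X and Y, with Python 3.11.15, pandas 2.3.3 and NumPy 2.4.6. The interval code was checked on simulated peaks. All 10 symbols, and all other listed genes, matched. Starts came from the RefSeq promoter table. No test was made. The 10 genes and the lists were chosen with earlier results of these data known. Named were all 10 genes and, from the Hippo and target lists, each gene with an EPZ5676 peak, the 3 with the longest control coverage and those without any peak; Stk4, Sav1, Mob1a, Mob1b and Nf2 were added after their values were seen. The number of value columns not mapped to a sample was 0.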

Additional observations from a re-analysis of the deposited data

How the results depend on the processing

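All 10 genes kept a control peak under each of the 6 alternatives on peaks and spans. Over all alternatives, 43 of 55 values stayed close to those reported. Close meant within 1.5 times for counts and lengths, and for shares within their 95% exact binomial interval. That interval covers the sampling of bases only and treats neighbouring bases as independent, so it measures no spread between replicates. Some of the 43 could not move, so the tally does not measure robustness. The limit on control peaks left the EPZ5676 peaks as they were, and Tead1 overlaps no other coding gene. Leaving out 1 of the 10 genes keeps counts within 1.5 times. The strictness of the EPZ5676 list mattered most. With −log10 q of at least 2 in both lists, 2 of the 10 genes (Tead4 and Vgll4) had an EPZ5676 peak, and 2 had a peak in both lists. Tead1, Tead3, Wwtr1, Lats1 and Lats2 each had 0 bp covered after EPZ5676, since all their EPZ5676 peaks had a −log10 q under 2. In the set 2193 bp were then covered after EPZ5676, and 0.427% of the control-covered bases stayed covered. That share was 4.48% with control peaks held to the lowest −log10 p of the EPZ5676 list (4.03), 2.85% with peaks of at least 500 bp, 3.77% with spans extended by 5 kb, 3.41% without bases of other coding genes and 3.30% as the median over the 10 genes. Without Tead1, an alternative added after the data were seen, 12669 bp were covered after EPZ5676 and the share was 2.95%. No paired analysis was possible because each condition has 1 peak list and no test was made, and no replicate could be left out for the same reason.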
